A study of Mus musculus with 10 samples.

Results

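Expression of 35 genes of the DNA damage checkpoint, homologous recombination and Fanconi repair pathways was examined in mouse thymus with 1 or both alleles of Usp7 knocked out. The genes were chosen by symbol, as rows of the count table whose Ensembl identifier maps to Atm, Atr, Brca1, Fancd2 and the other 31 genes named below. Their counts were not a criterion, but earlier results of these data were known when the genes and the other gene lists were chosen. All 35 were found among the 35375 features and passed the filter on low counts with 19511 features in all. The fewest counts of any of them in any library was 200. They include 8 checkpoint genes (kinases, their mediators and the 53BP1-RIF1 pair), 10 Fanconi genes and 5 genes of break sensing and end resection, and the others are described gene by gene.

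These genes act on broken or stalled DNA. The MRE11-RAD50-NBN complex senses double-strand breaks and activates the kinase ATM, while TOPBP1 activates ATR at stretches of single-stranded DNA, and the kinases CHK1 and CHK2 pass the signal to the cell cycle. In S and G2 phase, CtIP (Rbbp8) and EXO1 trim the ends and the BRCA1-BARD1, PALB2 and BRCA2 proteins act in repair by recombination, whereas 53BP1 and RIF1 hold the ends for joining, and the Fanconi proteins use the same machinery to remove links between strands. In the thymus, dividing thymocytes and the breaks made by the RAG recombinase during receptor rearrangement both draw on these pathways.

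The data are total RNA-seq of whole thymus taken 3 days after birth from mice on the C57BL/6J background, depleted of ribosomal RNA. Usp7, also called HAUSP, encodes a deubiquitinase that acts on MDM2 and p53 among other proteins. It was knocked out in the hematopoietic system on both alleles in the homozygous KO group (n = 3) and on 1 allele in the heterozygous KO group (n = 3), and the wild-type group held 4 mice. By the design text, 2 of the wild types carried a Cre and 2 did not, but the labels do not say which, and the promoter that drives Cre was not given in the sources used here. The tissue was not sorted, so a lower share of a cell type and less RNA per cell cannot be told apart, and stromal cells lie outside the deleted lineage.

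Library totals ranged from 39.8 to 122 M counts, so that 3 counts correspond to 0.0245 to 0.0753 counts per M counts (CPM). Levels below are CPM after TMM scaling. Homozygous KO replicates 1 to 3 held Usp7 at 303, 422 and 408 CPM. It was at 472, 516 and 516 CPM in heterozygous KO and at 676, 670, 594 and 589 CPM in wild type, with no overlap of the 3 groups. Its log2 fold change against wild type was -0.74 ± 0.11 (SE) in homozygous KO (edgeR quasi-likelihood adjusted p = 5.2e-04) and -0.34 ± 0.11 in heterozygous KO (adjusted p = 0.608). An exact two-sided permutation test of either KO group against wild type gave p = 0.0571, the smallest value that 3 against 4 libraries allow. The column names of wild types 3 and 4 add the word het to their names, and the group in the sample titles was kept. Labels of wild types 1 and 2 hold 2 wt words and those of wild types 3 and 4 hold 1. Whether this split is that of the Cre was not given. It also goes with depth, at 39.8 and 41 M counts against 86.4 and 81 M. Thymocyte markers were abundant in each library. Their summed level over 9 genes was 8881 to 9248 CPM in homozygous KO, 10467 to 11218 CPM in heterozygous KO and 10639 to 11999 CPM in wild type. Among them Cd3e read 396 to 451 CPM over all libraries, while the mean of Rag1 was 3491 CPM in homozygous KO and 6300 CPM in wild type.

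Homozygous KO replicate 1 stood apart from the other 9 libraries in the genes described here. It held the highest level of the 3 homozygous KO libraries for 33 of the 35 genes and the highest of all 10 libraries for 28 of them (80%), against 15.7% of all features tested. Relative to the mean of the wild types, the median of the 35 genes was 0.44 on the log2 scale in this library, compared with -0.04 and 0.08 in homozygous KO replicates 2 and 3, -0.07 to 0.10 in the heterozygous KO libraries and -0.06 to 0.06 in the wild types. The median of all features tested lay between -0.02 and 0.00 in each of the 10 libraries. This library was also the deepest and had the lowest Usp7 level. The main counts below are therefore given with and without it.

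**Figure D1:**
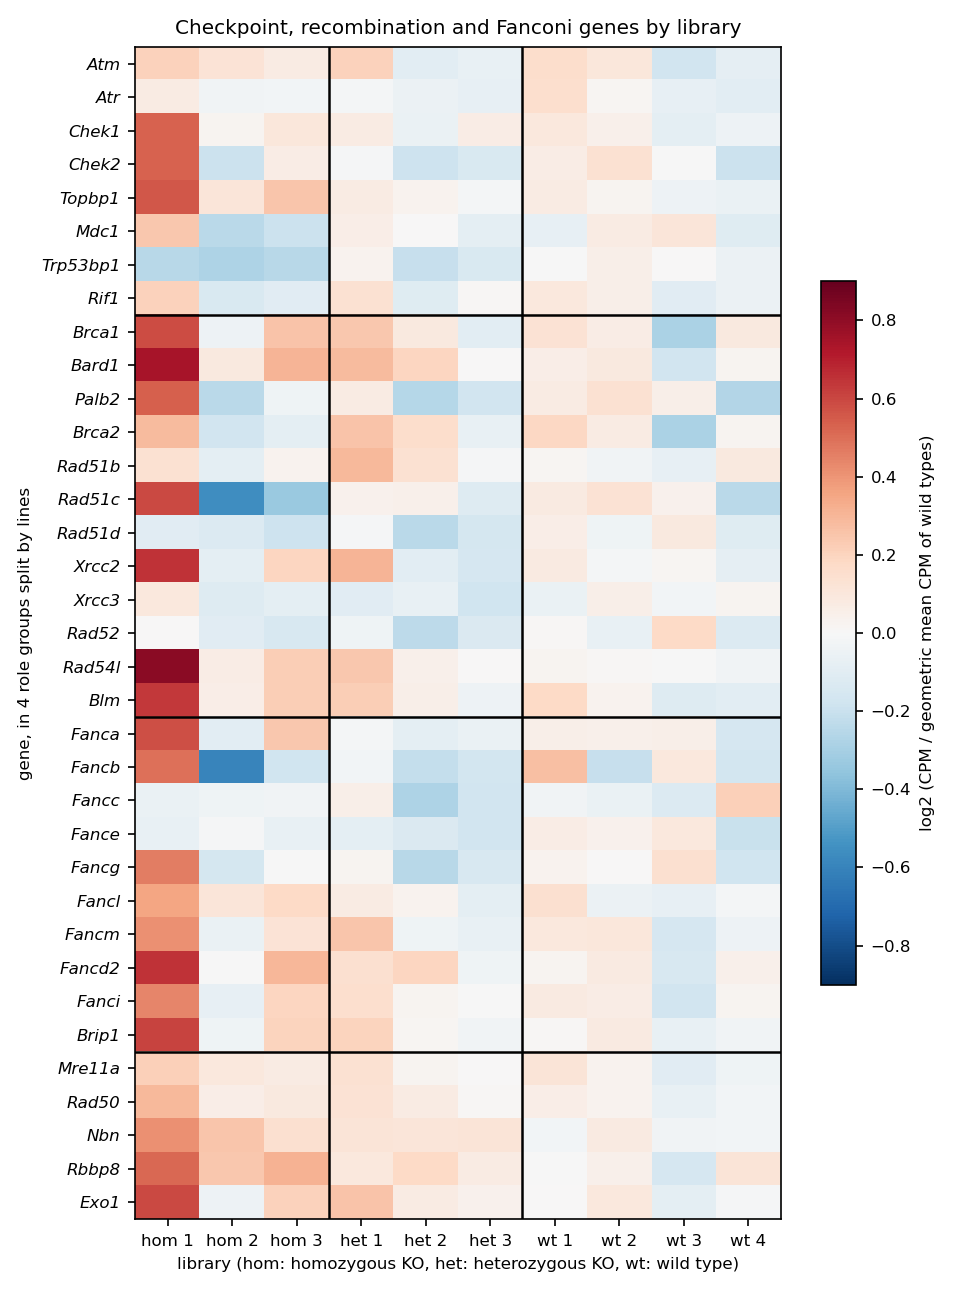
Level of each of the 35 genes (rows, in 4 role groups split by lines) in each of the 10 libraries (columns) as log2 of CPM over the geometric mean CPM of the 4 wild types, red for higher and blue for lower. The column of homozygous KO replicate 1 is red for 31 of the 35 genes, while Trp53bp1 is blue in all 3 homozygous KO libraries.

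Promoter windows of 5 genes are shown first, since the called genes differ in the words they hold. They belong to Topbp1, Bard1 and Trp53bp1, those genes called between homozygous KO and wild type that have a window in the RefSeq table used here, and to Chek1 and Brca1, the effector kinase of ATR and the partner of BARD1. Each runs 5′ to 3′ on the gene's strand from 250 bases before to 50 bases after the annotated start. Capitals mark E2F words (TTTGGCGC, TTTCCCGC, TTTCGCGC, TTCCCGCC or TTGGCGCC), CHR words (TTTGAA or TTCGAA) and CCAAT, on either strand. E2F proteins act on genes of S phase entry, and the CHR element on genes of G2 and mitosis.
Topbp1, the activator of ATR, with an E2F word on the opposite strand (GRCm38.p6, chr9:103305077-103305376, plus strand): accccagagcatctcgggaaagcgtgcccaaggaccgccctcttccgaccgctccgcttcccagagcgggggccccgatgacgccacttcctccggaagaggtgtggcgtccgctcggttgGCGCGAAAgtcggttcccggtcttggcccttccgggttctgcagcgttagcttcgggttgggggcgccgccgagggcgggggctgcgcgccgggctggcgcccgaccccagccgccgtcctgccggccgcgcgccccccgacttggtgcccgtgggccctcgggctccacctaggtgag
Bard1, the partner of BRCA1, with a CHR word and an E2F word (GRCm38.p6, chr1:71102923-71103222, minus strand): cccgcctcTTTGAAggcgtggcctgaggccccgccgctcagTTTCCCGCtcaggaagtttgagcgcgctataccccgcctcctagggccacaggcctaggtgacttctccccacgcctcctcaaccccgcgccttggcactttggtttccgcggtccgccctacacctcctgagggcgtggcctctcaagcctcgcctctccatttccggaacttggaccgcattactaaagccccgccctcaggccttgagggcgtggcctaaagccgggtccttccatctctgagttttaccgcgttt
Trp53bp1, encoding 53BP1, with none of these words (GRCm38.p6, chr2:121271358-121271657, minus strand): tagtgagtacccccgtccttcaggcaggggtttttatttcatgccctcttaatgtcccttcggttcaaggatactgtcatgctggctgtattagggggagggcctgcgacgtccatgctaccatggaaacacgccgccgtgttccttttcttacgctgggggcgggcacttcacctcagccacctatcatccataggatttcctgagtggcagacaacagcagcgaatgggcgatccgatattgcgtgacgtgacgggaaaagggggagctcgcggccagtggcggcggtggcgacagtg
Chek1, encoding CHK1, with an E2F word on the opposite strand past the start (GRCm38.p6, chr9:36726609-36726908, minus strand): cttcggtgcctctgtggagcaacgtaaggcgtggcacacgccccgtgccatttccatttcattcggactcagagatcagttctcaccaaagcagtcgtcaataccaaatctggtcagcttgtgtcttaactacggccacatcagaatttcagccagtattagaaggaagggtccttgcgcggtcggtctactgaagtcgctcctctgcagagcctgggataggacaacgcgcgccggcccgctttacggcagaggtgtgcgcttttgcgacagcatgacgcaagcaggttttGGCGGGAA
Brca1, with a CCAAT and an E2F word on the opposite strand past the start (GRCm38.p6, chr11:101551906-101552205, minus strand): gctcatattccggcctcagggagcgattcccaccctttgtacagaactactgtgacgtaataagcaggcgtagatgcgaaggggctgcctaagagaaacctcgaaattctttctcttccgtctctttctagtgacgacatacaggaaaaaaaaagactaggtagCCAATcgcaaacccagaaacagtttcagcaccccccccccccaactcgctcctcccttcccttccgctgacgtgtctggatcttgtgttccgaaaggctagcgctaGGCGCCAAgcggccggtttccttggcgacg
The first base of the E2F word lies at position -129 in Topbp1, -209 in Bard1, 43 in Chek1 and 21 in Brca1, counted from 1 at the start. The CHR word of Bard1 begins at -242.

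E2F words were present in the windows of 11 of the 27 genes that have one (40.7%), against 1256 of 27025 genes (4.65%). The 11 genes were Chek1, Chek2, Topbp1, Mdc1, Brca1, Bard1, Brca2, Rad51c, Fancb, Fancg and Fancm. The words overlap in part, since TTTCCCGC and TTCCCGCC share 7 bases, and the median GC content of the windows was 59.7% for these 27 genes and 53.3% for all genes. CHR words were found in 3 of the 27 (11.1%, against 21.7% of all genes), in Atr, Bard1 and Rad51b. CCAAT was found in 16 (59.3%, against 41.1%), the ETS word CCGGAAGT in Palb2 alone (3.7%, against 4.31%) and the NRF1 motif in 0 (against 1.07%). A match describes the letters of the window only. The 11 genes with an E2F word had a median log2 fold change of 0.16 between homozygous KO and wild type and the other 16 a median of 0.12, while homozygous KO replicate 1 exceeded the mean of replicates 2 and 3 by a median of 0.47 and 0.17 on the log2 scale, respectively.

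Per kilobase of exon, the levels of the 35 genes in wild type covered a range from 27.5 to 1.31 RPKM (mean of 4 libraries). Topbp1 (27.5 ± 1.18 RPKM, SD, n = 4) and Rif1 (26.3 ± 1.69 RPKM) were the most abundant, and their ranges overlapped. Mdc1 (18.5 ± 1.37 RPKM), which encodes the scaffold that binds phosphorylated H2AX, Rad50 (18.4 ± 0.775 RPKM) and Bard1 (17.2 ± 1.32 RPKM) followed, again with overlapping ranges. Of the kinases, Atm (11.5 ± 1.23 RPKM) and Chek1 (10.9 ± 0.629 RPKM) overlapped in range and lay above Chek2 (6.2 ± 0.588 RPKM) and Atr (2.81 ± 0.223 RPKM). A further group of recombination genes was spread widely, from Rad51d (9.23 ± 0.57 RPKM) and Xrcc3 (8.37 ± 0.285 RPKM) through Xrcc2 (3.6 ± 0.166 RPKM) to Rad51c (2.03 ± 0.224 RPKM) and Rad51b (1.31 ± 0.0627 RPKM), which did not overlap and closed the order. Among Fanconi genes Fanci (8.29 ± 0.658 RPKM) and Fancd2 (7.45 ± 0.506 RPKM), whose products form the clamp that is ubiquitinated at crosslinks, overlapped in range with Fancg (7.47 ± 0.685 RPKM) and Brip1 (7.31 ± 0.326 RPKM). The bottom of the Fanconi order was held by Fancb (3.48 ± 0.546 RPKM), Fancc (3.86 ± 0.416 RPKM) and Fancl (3.95 ± 0.277 RPKM), the last encoding the ubiquitin ligase of the pathway. Exon lengths were those of a GENCODE annotation, which may not match that of the counting.

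With loss of both Usp7 alleles, Topbp1, Bard1, Nbn and Rbbp8 rose and Trp53bp1 fell against wild type, and the other 30 genes did not pass the test. The changes were small, between 1.21-fold and 1.32-fold for those that rose and to 0.836 of the wild-type level for Trp53bp1. Thus 5 of 35 genes were called at an adjusted p under 0.05 where 25.8% of all 19511 features were called, with 4 higher (12.5% of all features were called higher) and 1 lower (13.2% called lower). At an unadjusted p under 0.05, 12 of the 35 passed, against 37.4% of all features, and the homozygous KO and wild-type libraries did not overlap for 6 of the 35, against 32.7%. With homozygous KO replicate 1 left out, these counts were 7 (against 35.5% of all features) and 10 (against 44%). The median log2 fold change of the 35 was 0.15, beside -0.01 for all features tested, and 25 of the 35 estimates were above 0. Without homozygous KO replicate 1, the median was 0.05, beside -0.01 for all features, and 4 of 35 genes were called where 22.7% of all features were, with Rbbp8 higher and Trp53bp1, Mdc1 and Rad51c lower. Without homozygous KO replicate 2, 13 of the 35 were called, where 20.1% of all features were, with a median of 0.27.

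**Figure D2:**
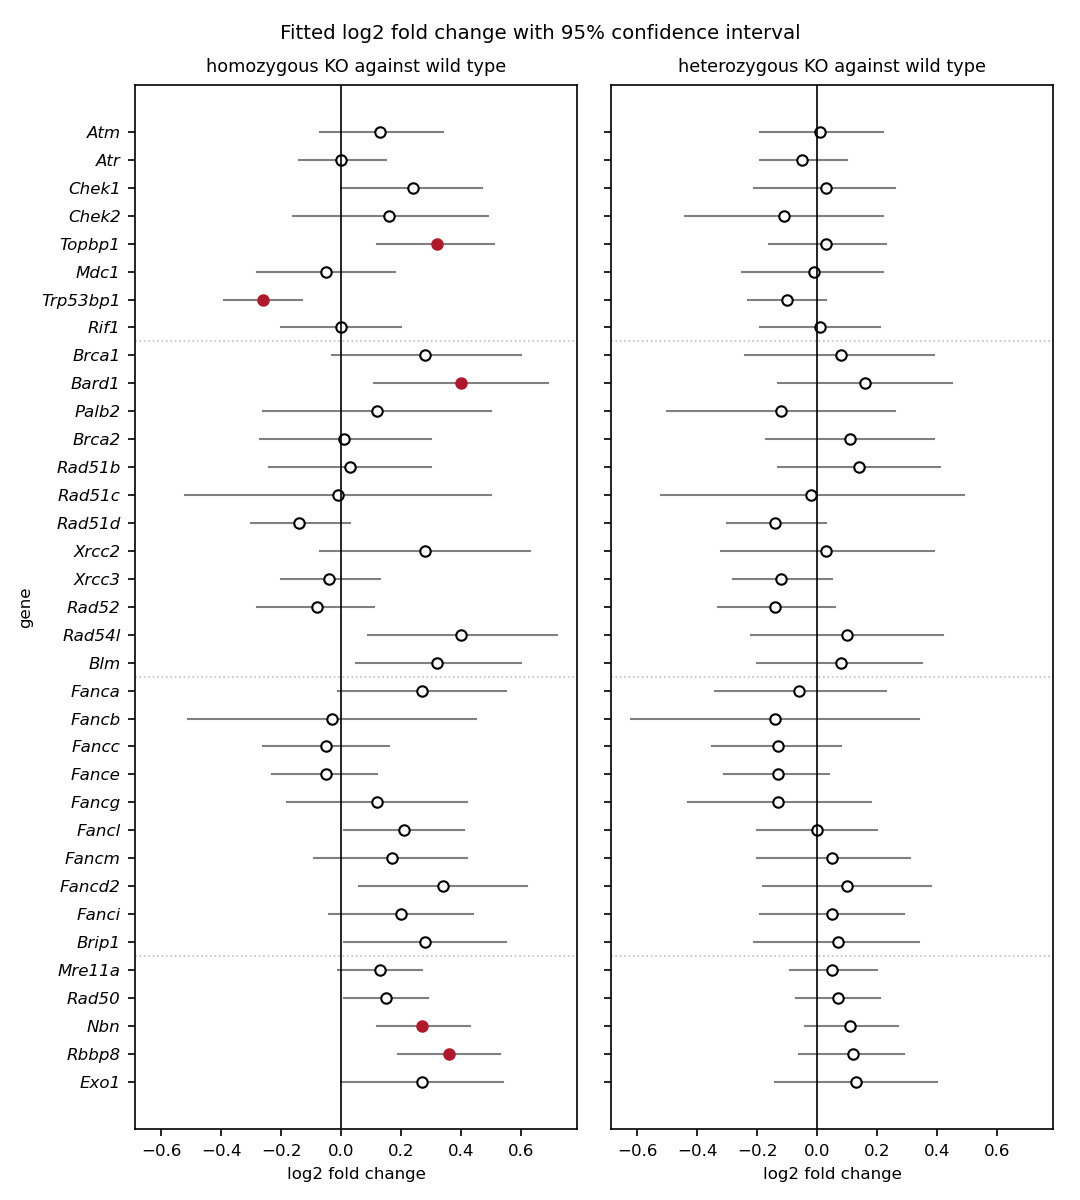
Fitted log2 fold change (circle) with its 95% confidence interval (line) for each of the 35 genes, for homozygous KO against wild type on the left and heterozygous KO against wild type on the right, with red circles for genes called at an adjusted p under 0.05. In the left panel 5 genes are red, 4 of them to the right of 0 and Trp53bp1 to the left, and in the right panel none is.

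Among the checkpoint genes, Topbp1 (ENSMUSG00000032555, chr9:103305215-103350428, plus strand, GRCm38) read 455, 333 and 367 CPM in homozygous KO, 326, 316 and 306 CPM in heterozygous KO and 325, 315, 300 and 297 CPM in wild type. Each homozygous KO library was above each of the other 7, the first of them by the widest margin. The log2 fold change against wild type was 0.32 ± 0.09 (SE; adjusted p = 0.0237), and 0.18 without homozygous KO replicate 1 (adjusted p = 0.0613). Its exons overlap no other annotated exons.

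Trp53bp1 (ENSMUSG00000043909, chr2:121193281-121271407, minus strand, GRCm38), whose product 53BP1 shields breaks from resection, moved the other way. It read 77.6, 76.2 and 77.6 CPM in homozygous KO, 94.2, 79.9 and 83.8 CPM in heterozygous KO and 92.1, 95.5, 92.6 and 89 CPM in wild type. All 3 homozygous KO libraries were below the other 7, with an SD of 0.787 CPM. The log2 fold change was -0.26 ± 0.06 (adjusted p = 0.00843), and -0.27 without homozygous KO replicate 1 (adjusted p = 0.0173). Its exons overlap those of Tubgcp4 on the opposite strand, and the strand setting of the counting was not given in the sources used here, so reads of the pair may not have been told apart.

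The other checkpoint genes did not pass the test. Chek1, the effector kinase of ATR, had a log2 fold change of 0.24 ± 0.11 (adjusted p = 0.134) that came to 0.06 without homozygous KO replicate 1, in which it read 72.7 CPM against 51.4 and 54.2 CPM in replicates 2 and 3. Chek2, the effector kinase of ATM, read 26.8, 16.2 and 19.4 CPM in homozygous KO and 16.2 to 20.4 CPM in wild type, with estimates of 0.16 ± 0.15 with and -0.07 without the first library. Atm had an estimate of 0.13 ± 0.09.

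Atr and Rif1 were 2 of the 5 genes with the smallest difference relative to its error. Atr read 69.6, 64.7 and 65.1 CPM in homozygous KO, 65.6, 64 and 63 CPM in heterozygous KO and 73.6, 67, 62.9 and 62.2 CPM in wild type. The 3 groups overlapped, and the 95% confidence interval of the log2 fold change between homozygous KO and wild type ran from -0.14 to 0.15. Rif1, the effector of 53BP1 at ends, read 318, 250 and 257 CPM in homozygous KO, 303, 255 and 277 CPM in heterozygous KO and 295, 286, 257 and 266 CPM in wild type, with an interval of -0.20 to 0.20. The difference between Rif1 and Trp53bp1, whose products act together, was not tested.

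Mdc1 depended on the first homozygous KO library. It read 162 CPM there against 116 and 120 CPM in replicates 2 and 3, 129 to 143 CPM in heterozygous KO and 127 to 148 CPM in wild type. The estimate was -0.05 ± 0.11 (adjusted p = 0.753) with all libraries and -0.22 (adjusted p = 0.0496) without that library.

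**Figure D3:**
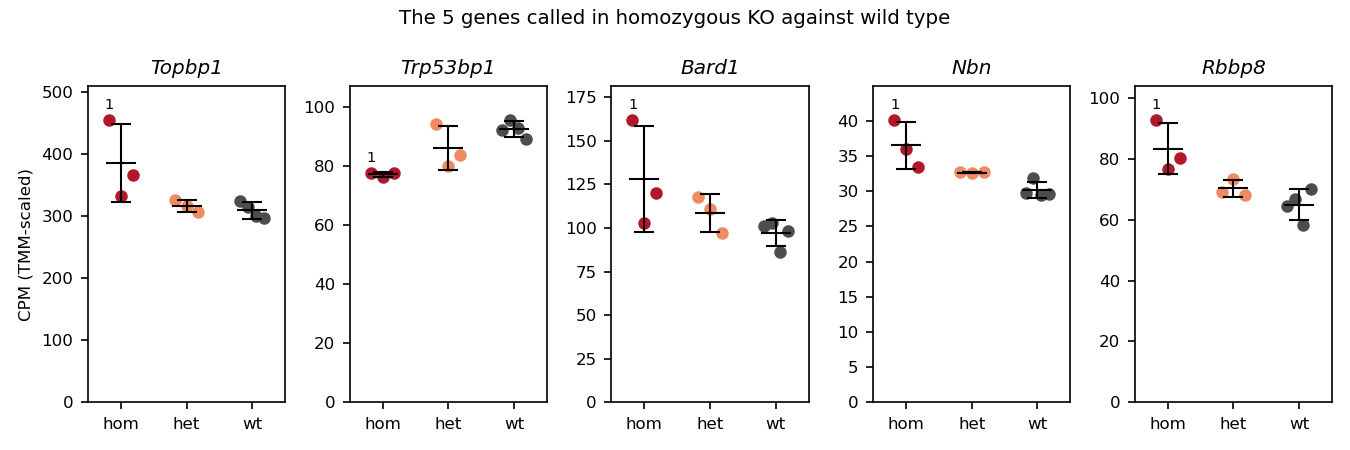
TMM-scaled CPM of the 5 genes that passed the test between homozygous KO and wild type, with 1 point per library (hom, homozygous KO, n = 3; het, heterozygous KO, n = 3; wt, wild type, n = 4), the mean as a bar and the SD as whiskers, on axes that start at 0. The point marked 1 is homozygous KO replicate 1, which is the highest of the 10 libraries for Topbp1, Bard1, Nbn and Rbbp8, and all 3 homozygous KO points lie below every other point for Trp53bp1.

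Bard1 was called as well. Bard1 (ENSMUSG00000026196, chr1:71027498-71103146, minus strand, GRCm38) read 162, 103 and 120 CPM in homozygous KO, 118, 111 and 97 CPM in heterozygous KO and 101, 103, 86.1 and 98.5 CPM in wild type. Homozygous KO replicate 2, at 103 CPM, lay barely above the highest wild type. The log2 fold change was 0.40 ± 0.13 (adjusted p = 0.0443), and 0.20 without homozygous KO replicate 1 (adjusted p = 0.17). Brca1, which forms a ubiquitin ligase with BARD1, had an estimate of 0.28 ± 0.14 (adjusted p = 0.178) from 152, 98.4 and 121 CPM against 83.1 to 111 CPM in wild type, and the groups overlapped.

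Rad54l, a motor protein that acts in recombination, had the same estimate as Bard1 and missed the threshold. It read 80, 47.7 and 53.2 CPM in homozygous KO, 54.1, 47 and 45.7 CPM in heterozygous KO and 46.5, 46, 45.4 and 44.6 CPM in wild type. All 3 homozygous KO libraries were above all 4 wild types, whose SD was only 0.82 CPM. The log2 fold change was 0.40 ± 0.14 (adjusted p = 0.0619) and fell to 0.14 without homozygous KO replicate 1. Blm, a helicase that dissolves recombination intermediates, gave 0.32 ± 0.13 (adjusted p = 0.0835) and 0.14 without that library.

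Brca2, Palb2, Rad51b, Rad51c, Rad51d, Xrcc2 and Xrcc3 gave no call with all libraries. Brca2, a mediator of recombination, read 111, 81.2 and 85.7 CPM in homozygous KO, 109, 102 and 87.3 CPM in heterozygous KO and 104, 96.1, 75 and 92.7 CPM in wild type. The groups overlapped, with an interval for homozygous KO against wild type of -0.27 to 0.30. Palb2, the bridge between BRCA1 and BRCA2, had estimates of 0.12 ± 0.17 with and -0.15 without homozygous KO replicate 1.

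Rad51c was the gene with the widest spread among the homozygous KO libraries, with a coefficient of variation of 45.3%. It read 13.4, 6.01 and 7.04 CPM in homozygous KO, 9.08, 9.13 and 8.17 CPM in heterozygous KO and 9.36, 9.68, 9.09 and 7.47 CPM in wild type. The first homozygous KO library was above, and the other 2 below, all other 7 libraries. The fit over all libraries gave an interval of -0.52 to 0.50, and without homozygous KO replicate 1 the log2 fold change was -0.45 (adjusted p = 0.0377).

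Of its partners, Xrcc2 had an estimate of 0.28 ± 0.16 (adjusted p = 0.227) that came to 0.05 without homozygous KO replicate 1, and Rad51d one of -0.14 ± 0.07 (adjusted p = 0.205). Rad51b read 4.63 to 5.41 CPM in homozygous KO, 4.88 to 6.04 CPM in heterozygous KO and 4.69 to 5.24 CPM in wild type. Xrcc3 read 21.2 to 24.6, 20.3 to 22 and 22.1 to 23.9 CPM in these groups, and Rad52, an annealing protein, 18 to 20, 16.9 to 19.4 and 18.3 to 22.5 CPM. These 3 genes overlapped between homozygous KO and wild type. Between heterozygous KO and wild type Xrcc3 did not overlap and was lower (log2 fold change -0.12 ± 0.07, adjusted p = 0.797).

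None of the 10 Fanconi genes was called, where 25.8% of all features were, and 3 of 10 passed an unadjusted p under 0.05, where 37.4% of all features did. These 3 were Fancd2 (0.34 ± 0.13, adjusted p = 0.0738), Brip1, the helicase that binds BRCA1 (0.28 ± 0.12, adjusted p = 0.122), and Fancl (0.21 ± 0.09, adjusted p = 0.114). With homozygous KO replicate 1 left out, 0 of the 10 were called (against 22.7% of all features). In that fit 1 passed an unadjusted p under 0.05 (against 35.5%). Fancd2 read 92.6, 58.9 and 72.6 CPM in homozygous KO, 65.3, 67.4 and 57.5 CPM in heterozygous KO and 59.9, 62.3, 53.3 and 61 CPM in wild type, so the groups overlapped through homozygous KO replicate 2. Fanci, its partner, had an estimate of 0.20 ± 0.11 (adjusted p = 0.207). Without homozygous KO replicate 1 the estimates were 0.15 for Fancd2, 0.08 for Brip1, 0.13 for Fancl and 0.06 for Fanci.

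Genes of the Fanconi core complex, the ligase that modifies FANCD2 and FANCI, were spread around no change. Fanca (0.27 ± 0.13, adjusted p = 0.148) and Fancm (0.17 ± 0.12, adjusted p = 0.319), the latter encoding the protein that recruits the complex to DNA, had estimates above 0, and Fancg one of 0.12 ± 0.14 that turned to -0.09 without homozygous KO replicate 1. Fancc read 30.9 to 31.4 CPM in homozygous KO and 29.5 to 37.4 CPM in wild type. Fancb, on chromosome X, read 14.5, 6.82 and 9.07 CPM in homozygous KO, 10.1, 8.85 and 9.17 CPM in heterozygous KO and 12.4, 8.93, 11 and 9.19 CPM in wild type. Like Rad51c, it was highest and lowest within the homozygous KO group, and its interval of -0.51 to 0.45 was among the widest.

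The 5 genes of break sensing and end resection had estimates above 0 in each case, with a median log2 fold change of 0.27 and 2 of 5 called, where 25.8% of all features were. When homozygous KO replicate 1 was left out, the 5 estimates were still above 0 with a median of 0.08. In that fit 1 of the 5 was called, Rbbp8, where 22.7% of all features were. Rbbp8 (ENSMUSG00000041238, on chromosome 18) encodes CtIP, which starts resection. It read 92.7, 76.7 and 80.3 CPM in homozygous KO, 69.2, 73.3 and 68.2 CPM in heterozygous KO and 64.5, 66.6, 58.1 and 70.1 CPM in wild type. Each homozygous KO library was above the other 7, and the log2 fold change was 0.36 ± 0.08 (adjusted p = 0.00647), with 0.27 (adjusted p = 0.0235) without homozygous KO replicate 1. A predicted gene overlaps its exons on the opposite strand.

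Nbn (ENSMUSG00000028224, chr4:15957925-15992589, plus strand, GRCm38) encodes NBN, which brings ATM to the complex. It read 40.1, 35.9 and 33.4 CPM in homozygous KO, 32.7, 32.5 and 32.7 CPM in heterozygous KO and 29.7, 31.9, 29.5 and 29.6 CPM in wild type. The 3 groups did not overlap, and the heterozygous KO libraries lay between the other groups. The log2 fold change of homozygous KO was 0.27 ± 0.07 (adjusted p = 0.0153), and 0.20 (adjusted p = 0.0571) without homozygous KO replicate 1.

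The other 2 subunits of the complex had smaller estimates, 0.15 ± 0.06 (adjusted p = 0.114) for Rad50 and 0.13 ± 0.06 (adjusted p = 0.177) for Mre11a, its nuclease. The nuclease gene Exo1 gave 0.27 ± 0.12 (adjusted p = 0.129), from 77.3, 49.8 and 59.2 CPM against 48.2 to 54.8 CPM in wild type. The differences between subunits were not tested.

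With loss of 1 allele, 0 of the 35 genes were called by edgeR, where 3 of all features were (0.0154%), and 0 by DESeq2. At an unadjusted p under 0.05 the number was also 0, against 7.28% of all features. The median log2 fold change was 0.03, beside -0.01 for all features. For 32 of the 35 genes the whole 95% confidence interval lay within 0.5 of no change, and in homozygous KO for 21. This margin is wider than any estimate of the 35 genes in homozygous KO (at most 0.40 in size). It therefore leaves room for changes of that size with loss of 1 allele. The smallest p-values belonged to Rad51d, Trp53bp1 and Fance. Rad51d read 33.9, 28.9 and 30.6 CPM in heterozygous KO, 31.9, 31.5 and 30.1 CPM in homozygous KO and 35.7, 33.4, 36.3 and 31.7 CPM in wild type. The groups overlapped, and the log2 fold change of heterozygous KO was -0.14 ± 0.07 (adjusted p = 0.746). Trp53bp1, with the values given above, overlapped through heterozygous KO replicate 1 and had a log2 fold change of -0.10 ± 0.06 (adjusted p = 0.766). Fance, an adaptor of the Fanconi core complex, read 17.8, 17.3 and 16.8 CPM in heterozygous KO, 18.1, 18.8 and 18.1 CPM in homozygous KO and 19.8, 19.4, 20.2 and 16.5 CPM in wild type. Only wild type 4 lay below the heterozygous KO libraries, and the log2 fold change was -0.13 ± 0.08 (adjusted p = 0.782).

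Between homozygous and heterozygous KO, 0 of the 35 genes were called by edgeR, against 17.1% of all features, and 4 passed an unadjusted p under 0.05, against 28.8%. DESeq2 called 2, Topbp1 and Rbbp8, where it called 21% of all features. The estimates of the genes called against wild type were 0.28 ± 0.10 for Topbp1 (adjusted p = 0.0682), 0.25 ± 0.08 for Rbbp8 (adjusted p = 0.0721), 0.16 ± 0.08 for Nbn (adjusted p = 0.189), 0.24 ± 0.14 for Bard1 (adjusted p = 0.303) and -0.16 ± 0.06 for Trp53bp1 (adjusted p = 0.123). The libraries of the 2 groups overlapped for Bard1 (103 to 162 CPM against 97 to 118 CPM) and not for the other 4. Among all 35 genes the 2 groups did not overlap for 6. The share of all features was not counted for this comparison, so these numbers cannot be read as a trait of the 35 genes. This comparison shares the homozygous KO libraries with the first. The genes called against wild type were picked by that first comparison, so their separation here is not independent of it.

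Other genes of the same pathways, taken from lists chosen with earlier results of these data known, were counted in the same fit. In this fit of homozygous KO against wild type, 25.8% of all features were called. Of 15 other checkpoint genes, 9 rose and none fell (median log2 fold change 0.34), led by H2afx, the histone variant marked at breaks (0.60 ± 0.13, adjusted p = 0.00523), Pkmyt1, an inhibitory kinase of CDK1 (0.59 ± 0.12, adjusted p = 0.00395), and Clspn, the adaptor of CHK1 (0.51 ± 0.11, adjusted p = 0.00687). Of 22 other recombination genes, 8 rose (median 0.23), among them the resection nuclease gene Dna2 (0.57 ± 0.09, adjusted p = 9.8e-04). Of 12 other Fanconi genes, 4 rose (median 0.16), the polymerase gene Rev1 (0.45 ± 0.06, adjusted p = 2.3e-04), its partner Mad2l2 (0.41 ± 0.08, adjusted p = 0.00503), Ube2t, the E2 enzyme of FANCL (0.38 ± 0.08, adjusted p = 0.00706), and Usp1, which removes ubiquitin from FANCD2 (0.36 ± 0.08, adjusted p = 0.00721). Without homozygous KO replicate 1, 7, 5 and 4 genes of these lists were called, where 22.7% of all features were.

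Genes of the ubiquitin branch and of end joining were counted in the same way. Of 7 genes of the ubiquitin branch around 53BP1 and BRCA1-A, 3 rose (median 0.16), Paxip1, Babam1 and Uimc1, by at most 0.34 on the log2 scale, and 1 was called without homozygous KO replicate 1. Of 12 end-joining genes, Parp1 rose (0.17 ± 0.05, adjusted p = 0.0218) and Poll, a gap-filling polymerase, fell by 1.21 on the log2 scale (SE 0.31, adjusted p = 0.0146), with a median of 0.00 over the list. When homozygous KO replicate 1 was left out, 2 genes of this list were called, Poll lower and Xrcc6, a KU subunit, higher. In that fit 22.7% of all features were called. Poll was low, at 2.37, 2.12 and 0.986 CPM in homozygous KO.

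Cell cycle genes and p53 targets, from lists chosen in the same way, moved with the genotype beside these. Of 19 S phase genes 18 rose (median 0.40), for example Rrm2 (0.58 ± 0.14, adjusted p = 0.0112) and Uhrf1 (0.57 ± 0.10, adjusted p = 0.00151), and all 15 mitosis genes rose (median 0.52), for example Birc5 (0.70 ± 0.10, adjusted p = 3.7e-04). Of 16 E2F and DREAM regulators 9 rose (median 0.28), with E2f8 (0.63 ± 0.14, adjusted p = 0.00726), Foxm1 (0.60 ± 0.12, adjusted p = 0.00453) and Mybl2 (0.59 ± 0.09, adjusted p = 0.00101) at the top. Of 16 p53 targets 13 rose (median 1.29), among them Phlda3 (3.51 ± 0.18, adjusted p = 5.1e-07), Zmat3 (3.20 ± 0.10, adjusted p = 2.5e-08) and Pmaip1 (2.78 ± 0.16, adjusted p = 1.2e-06). Without homozygous KO replicate 1, 14 S phase genes, 13 mitosis genes, 6 regulators and 14 p53 targets were called, where 22.7% of all features were. No gene of the 9 lists was called in heterozygous KO.

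**Figure D4:**
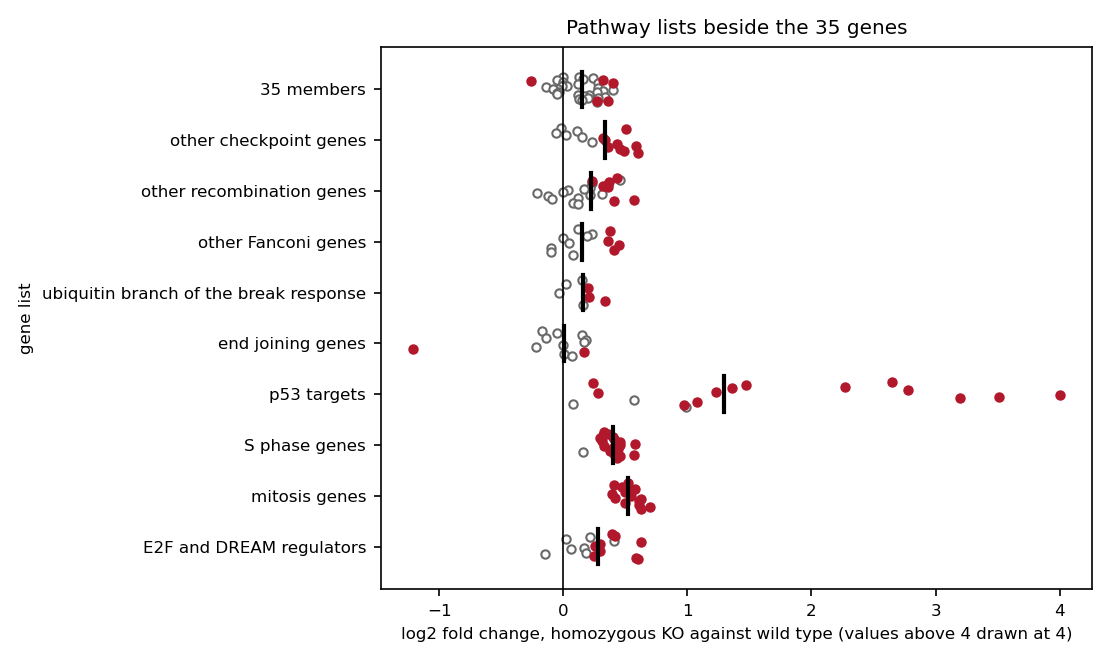
Log2 fold change between homozygous KO and wild type for the 35 genes (top row, members) and for the genes of 9 other pathway lists, with 1 circle per gene, red where called at an adjusted p under 0.05, and a black bar at each list's median. The bar of the 35 genes is at 0.15, below those of the S phase (0.40), mitosis (0.52) and p53 target lists (1.29), and the p53 target Eda2r, whose wild types were all under 3 counts, is drawn at 4.

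The S phase and mitosis lists varied between libraries in the same order as the 35 genes within the homozygous KO group. The level of all 19 S phase and all 15 mitosis genes was highest of the 10 libraries in homozygous KO replicate 1. The median difference of the S phase genes from the wild-type mean was 0.58, 0.20 and 0.34 on the log2 scale in homozygous KO replicates 1 to 3, that of the mitosis genes 0.83, 0.30 and 0.47, and that of the 35 genes 0.44, -0.04 and 0.08. The wild types spanned -0.10 to 0.06 over both cell cycle lists. By role, break sensing and resection genes were at 0.40, 0.10 and 0.14, Fanconi genes at 0.45, -0.05 and 0.14 and checkpoint genes at 0.22, -0.09 and 0.02. The p53 targets had a different order, with 1.19, 1.51 and 1.27. The part of cell cycle activity in the levels of the 35 genes was not tested.

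**Figure D5:**
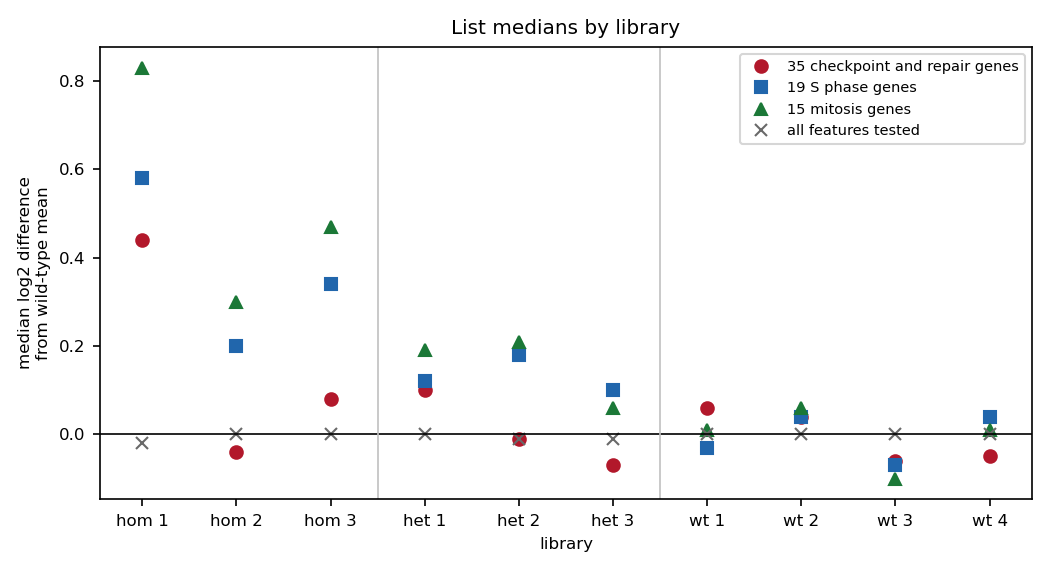
Median log2 difference from the wild-type mean in each library (hom, homozygous KO; het, heterozygous KO; wt, wild type) for the 35 genes (circles), 19 S phase genes (squares), 15 mitosis genes (triangles) and all features tested (crosses). Homozygous KO replicate 1 has the highest value for the first 3, at 0.44, 0.58 and 0.83, and the crosses stay within 0.02 of 0.

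Markers of other cells also moved with the genotype. All 5 neutrophil markers were higher in homozygous KO, with summed levels of 42.4 to 244 CPM against 4.27 to 8.07 CPM in heterozygous KO and 4.71 to 17.9 CPM in wild type, and lowest of the homozygous KO libraries in replicate 1. All 5 B cell markers were lower (6.34 to 8.92 CPM against 26.7 to 28.9 and 29.9 to 47.5 CPM), with Ms4a1 and Pax5 at 0 in homozygous KO replicate 3, as were all 5 dendritic cell markers (4.96 to 5.96 CPM against 16.9 to 19.9 and 17.2 to 21.9 CPM), with Siglech at 0 in homozygous KO replicate 2 and at 0.0174 and 0.0111 CPM in replicates 1 and 3. Of 5 macrophage and monocyte markers 3 were lower, of 4 fibroblast markers 2 were higher, of 5 erythroid markers 1 was higher, and of 6 thymic epithelium markers 1 was higher and 1 lower, while of 4 endothelium markers 0 were called (1 at an unadjusted p under 0.05). Of 9 thymocyte markers 2 rose and 2 fell, with Rag1 falling by 0.85 on the log2 scale. The counts of called markers were the same when homozygous KO replicate 1 was left out, except that 1 endothelium marker, Cdh5, was then called higher. The part of cell composition in the levels of the 35 genes was not tested.

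The animal numbers fall into a lower range, 44 to 51, with homozygous KO replicate 1, heterozygous KO replicate 1 and wild types 1 to 3, and a higher range, 56 to 63, with the rest, and the labels do not call these batches. Within the lower range the median difference of the 35 genes between homozygous KO and wild type was 0.40 on the log2 scale (1 against 3 libraries), and within the higher range it was 0.10 (2 against 1). With the range as a term in the fit, 16 of the 35 genes were called where 27.2% of all features were, a share above that of all features, while the 5 of 35 called without the term lay below it. The 5 called genes had differences of 0.54 and 0.24 for Topbp1, -0.27 and -0.21 for Trp53bp1, 0.75 and 0.17 for Bard1, 0.39 and 0.22 for Nbn and 0.55 and 0.16 for Rbbp8. Their direction was bound to be the same in both ranges, since for each gene the homozygous KO and wild-type libraries did not overlap.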

How the data were processed

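The authors deposited raw counts as 1 table of genes by 10 mice, in whole numbers without normalization. Per the labels, stranded libraries were made from ribosome-depleted total RNA, and the submitters' processing notes name CASAVA, STAR 2.4.1d and HTSeq 0.6.1p1 with the builds NCBIM37 and mm9. The annotation release and the strand setting were not given in the sources used here. Non-Ensembl features (908) made up 1.74% to 2.29% of a library. Symbols, positions and exon lengths came from GENCODE M21 (GRCm38) by identifier, and promoter windows from RefSeq by symbol (27 of 35 genes matched). The other 8 were Rif1, Rad51d, Xrcc2, Fancd2, Rad50, Nbn, Rbbp8 and Exo1.

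Counts were fitted with edgeR 4.0.16 (R 4.3.3), with TMM scaling, filterByExpr and the quasi-likelihood test, in 1 model of 3 groups over all 10 libraries, and p-values were adjusted by the Benjamini-Hochberg method over 19511 features, with a threshold of 0.05. The common biological coefficient of variation was 0.207. The SE is the absolute log2 fold change divided by the square root of F, and intervals use the t distribution of the fit. The p-values measure the spread between these libraries, 1 per mouse. Chi-square per degree of freedom between libraries of a group was 13.5 to 116, so none was a repeat of another. The procedure was tested on simulated data. Logarithms of single libraries used CPM + 0.5. Alternatives covered scaling, the filter, DESeq2 1.42.0, blocks, an Xist covariate and libraries left out. All 35 genes are named, with levels in every library for called genes with a log2 fold change of at least 0.5 in size (none reached it), for the 3 smallest p-values in heterozygous KO and for the 5 smallest ratios of difference to error. Levels of the 5 called genes, Rad54l, Fancd2 and others were added after their values were seen. At most 4 called genes were named per list. Rad54b, Fam175a, Bre, Emr1 and Epb4.2 did not match a symbol. The genes and the lists were chosen with earlier results of these data known.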

Additional observations from a re-analysis of the deposited data

Results flagged for a closer look

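Among the 4 wild types, 2 of the 35 genes had a library far from the other 3, a pattern that chance gives for about 1 gene in 20. Fanca read 35.9 CPM in wild type 4 and 41.2 to 41.5 CPM in the others. Nbn read 31.9 CPM in wild type 2 and 29.5 to 29.7 CPM in the others, and remained called when that library was left out (log2 fold change 0.30, adjusted p = 0.0208).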

How the results depend on the processing

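Each of the 5 genes called between homozygous KO and wild type kept its direction under all 17 alternatives. Leaving out libraries could hardly have turned it, since the homozygous KO and wild-type libraries did not overlap for these genes. Rbbp8 remained called in 17 of the alternatives, Trp53bp1 in 16, Nbn in 13, Topbp1 in 9 and Bard1 in 6. Of the 35 genes, 3 were called with library totals alone, where 4941 of 19511 features were. With Xist as a covariate 3 were called, against 4073 of 19511 features, and with only the 2 groups compared 3, against 4237 of 18892. Against the wild types with 2 wt words 2 were called (3595 of 19791 features) and against those with 1 wt word 1 (2670 of 19855). The subsets by wt words leave 2 wild types each. With the range of animal numbers as a term 16 were called, where 27.2% of all features were. When 1 library was left out, 3 to 13 were called, against 3945 to 4933 features. The main fit called 5030 of 19511 features. Library totals alone moved the median of all features to -0.11, and the median of the 35 genes to 0.06. Between homozygous and heterozygous KO the number of the 35 genes called was 1 with library totals alone, against 3186 of 19511 features, and 2 with DESeq2, against 4088. It was 1 with the animal-number term, against 4238 of 19511 features. With 1 library left out it was 0 to 3, against 2153 to 2990 features, and leaving out homozygous KO replicate 2 gave the 3 (Fanca, Fancd2 and Topbp1). The cause of these changes was not tested.

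The estimates for Chek2, Fancg and Palb2 turned to -0.07, -0.09 and -0.15 without homozygous KO replicate 1, and with 1 library left out reached up to 0.32, 0.25 and 0.28. That for Mdc1 turned to 0.03 with the animal-number term and ranged from -0.22 to 0.04 with 1 library left out, with 0.04 and 0.02 without homozygous KO replicates 2 and 3. That for Rad51c turned to 0.13 with the animal-number term and to 0.09 against the wild types with 1 wt word, and ranged from -0.45 to 0.21 with 1 library left out, with 0.21 and 0.13 without homozygous KO replicates 2 and 3 and 0.01 and 0.03 without wild types 1 and 2.

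The replicate numbers do not pair the mice by any label, and the deviations of same-numbered libraries correlated by -0.142 to 0.299. With the replicate block, 6 of the 35 genes were called, the 5 and Blm, where 4934 of 19511 features were. In heterozygous KO 0 were called with this block, where 5 features were. Heterozygous KO against wild type gave 0 calls among the 35 genes under all 17 alternatives, where 2 to 71 of all features were called. With 3 or 4 libraries a group, 95% confidence intervals for homozygous KO reached from -0.52 (Rad51c) to 0.72 (Rad54l) on the log2 scale.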
